A study of Mus musculus with 18 samples.

Results

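The cell division genes described here are a listed group of 44 genes that encode cyclins, mitotic kinases, spindle motors, chromosome proteins and the machinery that copies DNA. Their levels were measured in visceral fat (white adipose tissue, WAT) of 18 mice, with 1 Affymetrix Mouse Gene 1.0 ST array for each mouse. A gene was found by its symbol in the table that names the array's probe sets, and of several probe sets for a gene the brightest, averaged over the 18 arrays, stands for it. In this way 43 of the 44 genes were measured, out of 19938 genes in all, and Ccnb1, the gene of cyclin B1, was not analysed here because no probe set carried it as a single symbol. The list was taken as given. Its rule uses no measured value, but it was drawn up with earlier results of these data known.

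A dividing cell first copies its DNA and then separates the copies in mitosis. Cyclin-dependent kinases drive both steps, and each cyclin is made for its step and then destroyed. The MCM helicase opens the DNA for copying, the enzymes of deoxynucleotide synthesis supply its building blocks, and in mitosis condensin packs the chromosomes while kinesin motors and their partners build the spindle and split the cell. Most genes of mitosis are switched on together late in the cycle, whereas those of DNA replication rise earlier. In adult fat the mature adipocytes hardly divide, and the transcripts of division come mainly from other cells such as progenitors, endothelium, macrophages and lymphocytes.

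All mice were wildtype C57BL/6N males aged 5 to 6 months. The STZ, BEZ group (5 mice) was injected with streptozotocin (STZ), a toxin of the insulin-producing beta cells, and was later given bezafibrate (BEZ), a lipid-lowering agonist of the PPAR receptors, in the food. The STZ, SD group (6 mice) had the same injections and stayed on standard diet, and the Con, SD group (7 mice) was mock-injected with citrate buffer and ate the same placebo food. The labels give STZ as 65 mg/kg on 5 days at an age of 10 to 16 weeks, and BEZ as 0.25% or 0.5% of the food for 8 weeks from 2 weeks after STZ, without saying which mouse had which share. The study's methods state another STZ dose and describe the control mice as untreated. STZ models a lack of insulin through loss of beta cells, so the groups differ from Con, SD in exposure to the toxin as well as in insulin. The values are log2 signals, and the level of one gene's probe set cannot be set against that of another gene.

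Several arrays carried RNA of other tissues. The mean of 13 meiotic germ cell genes was 6.38 in STZ, SD replicate 4 and 6.84 in Con, SD replicate 5, and it was 5.07 to 5.41 in the other 16 arrays. The mean of 11 B cell genes was 6.88 in STZ, BEZ replicate 4 and 8.41 in STZ, SD replicate 6, and 5.48 to 6.12 elsewhere. The mean of 19 pancreas genes was 8.64 to 11.34 in STZ, BEZ replicates 1 to 4 and 13.33 in STZ, SD replicate 6, and 5.75 to 6.12 elsewhere. For 19 genes of epididymis and testis the mean was 10.70 to 11.12 in STZ, SD replicate 3 and in Con, SD replicates 3 and 5. It was 8.67 in Con, SD replicate 6, 7.79 in STZ, SD replicate 4, 7.38 in Con, SD replicate 1 and 5.52 to 6.93 elsewhere. The 15 genes of white adipocytes, the labelled tissue, averaged 11.96 to 12.20 in STZ, BEZ, 9.75 to 12.10 in STZ, SD and 11.51 to 12.27 in Con, SD, with the lowest value in STZ, SD replicate 6. The results below are therefore also given without these arrays, but for epididymis and testis only the arrays at 10.70 to 11.12 were left out.

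The promoters of several members are shown first, since the genes of mitosis are known to share elements there. The RefSeq table (GRCm38.p6) holds a promoter for 38 of the 44 members, and not for Aurkb, Ccna2, Ccne2, Kif20a, Mcm4 or Tpx2. In the 250 bases before the start 3 elements were searched on both strands: the cell cycle homology region (CHR; TTTGAA or TTTAAA), which is bound by the MuvB complexes of mitotic genes, the CCAAT box, which is bound by NF-Y, and an E2F site (TTTGGCGC, TTTGCCGC, TTTCGCGC or TTTCCCGC), which is typical of genes of S phase. The sequences run 5′ to 3′ along the gene's strand over the 140 bases that end just before the start, and capitals mark matches to any of these letters on either strand. Ube2c (chr2:164769789-164769928, plus strand), Kif11 (chr19:37376242-37376381, plus strand), Ccnb2 (chr9:70421555-70421694, minus strand) and Top2a (chr11:99024190-99024329, minus strand) are mitotic genes that were lower in STZ, SD, and Mcm6 (chr1:128359706-128359845, minus strand) is a replication gene that did not pass the test.
Ube2c: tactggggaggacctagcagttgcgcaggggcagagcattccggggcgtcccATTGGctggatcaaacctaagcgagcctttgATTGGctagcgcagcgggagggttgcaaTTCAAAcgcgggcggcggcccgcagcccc
Kif11: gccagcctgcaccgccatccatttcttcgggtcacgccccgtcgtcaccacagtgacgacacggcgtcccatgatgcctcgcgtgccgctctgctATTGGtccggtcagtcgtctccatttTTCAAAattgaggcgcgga
Ccnb2: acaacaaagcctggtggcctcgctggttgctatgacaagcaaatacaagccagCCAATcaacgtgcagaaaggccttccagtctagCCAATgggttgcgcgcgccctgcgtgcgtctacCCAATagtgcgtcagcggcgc
Top2a: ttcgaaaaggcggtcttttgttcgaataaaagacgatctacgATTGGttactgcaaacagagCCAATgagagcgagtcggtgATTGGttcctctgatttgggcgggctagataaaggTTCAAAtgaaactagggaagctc
Mcm6: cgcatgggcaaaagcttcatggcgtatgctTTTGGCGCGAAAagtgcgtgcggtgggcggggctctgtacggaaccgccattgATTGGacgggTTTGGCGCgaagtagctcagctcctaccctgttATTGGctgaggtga

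In these windows Ube2c, Kif11 and Top2a held a CCAAT box followed by CHR letters (read here as TTCAAA on the other strand) nearer the start. Ccnb2 held 3 CCAAT boxes, and Mcm6 held 2 CCAAT boxes and 3 matches to the E2F letters, of which a pair overlap. Over the whole 250 bases, CHR letters were present in 16 of 28 members that act in mitosis (57.1%) and in 3 of 10 members of S phase entry and replication (30.0%), beside 28.1% of the 27025 genes of the table. CCAAT was present in 78.6% of the mitotic and 80.0% of the replication members, beside 37.5% of all genes, and E2F letters in 7.14% and 30.0%, beside 2.16% of all genes. Of the 11 members with a promoter that were lower in STZ, SD, 7 held CHR letters, 9 held CCAAT and 0 held E2F letters. A match says that these letters are present, and no binding was measured.

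Compared with Con, SD, fat of STZ, SD mice had 15 of the 43 measured members lower (34.9%; limma, adjusted p under 0.10) and 0 higher. Over all genes 4.52% were called lower and 5.82% higher. The median difference of the members was −0.34 on the log2 scale, beside −0.03 over all genes, and 37 of the 43 differences were negative. At an unadjusted p under 0.05, 29 members were lower (67.4%), beside 9.61% of all genes. For 3 members (Ube2c, Prc1 and Ccna2) every STZ, SD array lay below every Con, SD array, which was the case for 0.487% of all genes. The whole tissue was measured, so fewer dividing cells and less RNA per cell cannot be told apart.

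**Figure D1:**
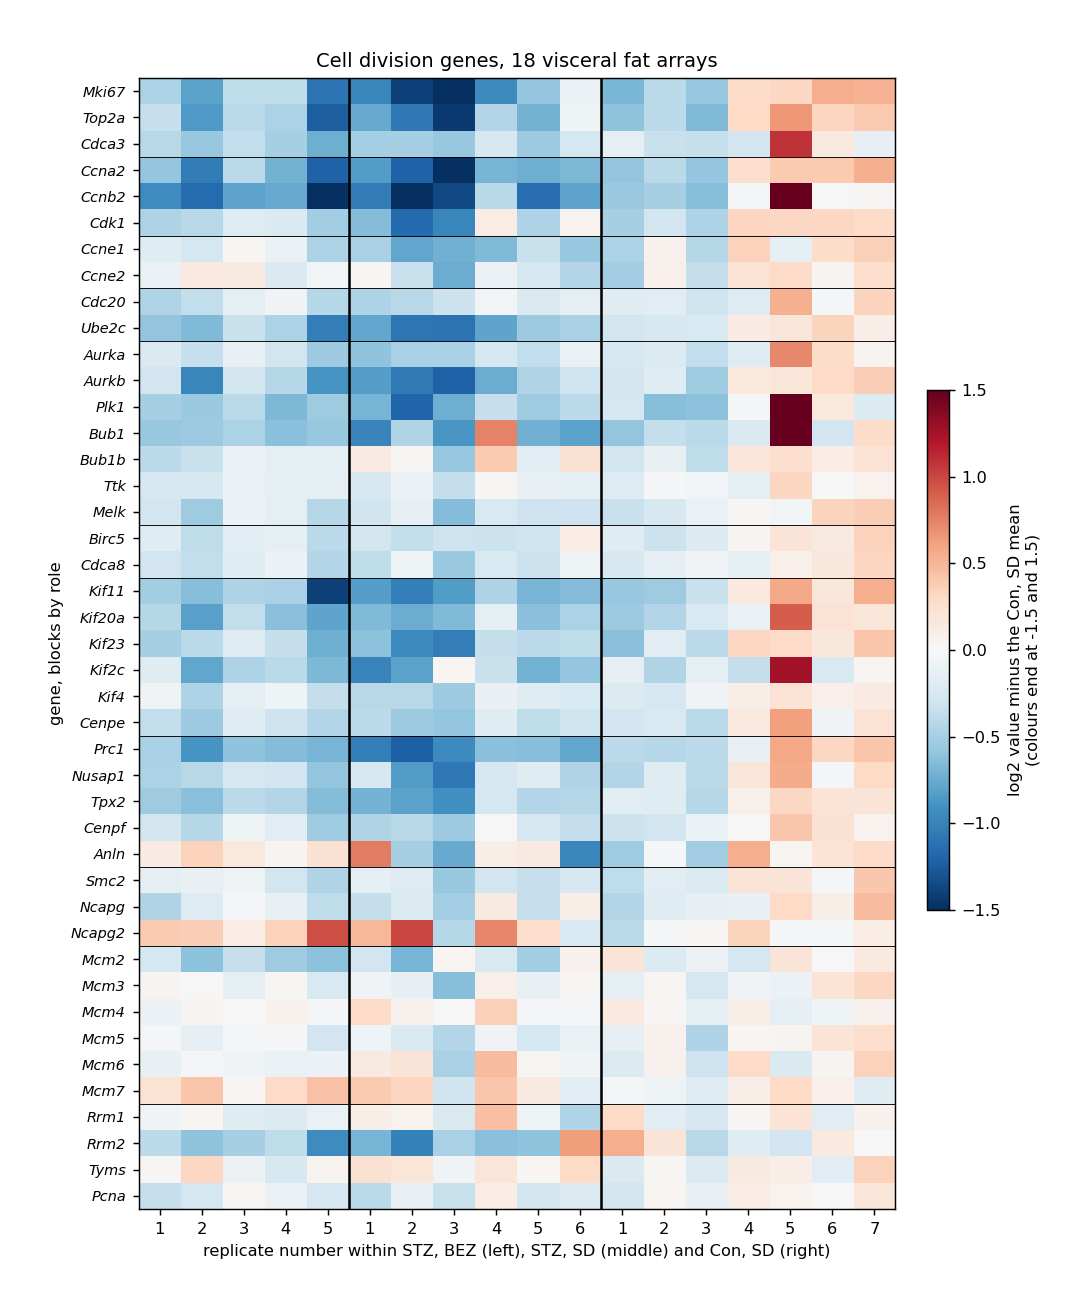
Each row is a member and each column an array, with the colour giving the log2 value minus the mean of Con, SD. Blue dominates in the upper blocks for STZ, BEZ and STZ, SD, and Con, SD replicate 5 stands out in red for Ccnb2, Plk1, Bub1 and Kif2c. The blocks of the MCM helicase and of nucleotide supply are paler, except for Rrm2, which is blue on most diabetic arrays, and Mcm2, which is blue on several.

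The mean over the 43 members was 6.38 to 6.66 in STZ, BEZ (median 6.58), 6.20 to 6.73 in STZ, SD (median 6.50) and 6.56 to 7.25 in Con, SD (median 6.93). The groups overlapped in this mean: Con, SD replicates 1, 2 and 3 had 6.58, 6.67 and 6.56, within the range of the diabetic arrays, and Con, SD replicates 4 to 7 had 6.93 to 7.25, above every diabetic array.

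All but 1 of the called members, Ccne1, act in mitosis. Of the 6 mitotic kinesins 5 fell, of the 5 spindle, kinetochore and cytokinesis proteins 3, of the 3 measured mitotic cyclins and their kinase 2, of the 3 proliferation markers 2, of the 7 mitotic kinases and checkpoint proteins 1, and of the pair that serves the anaphase-promoting ubiquitin ligase 1. Of the 6 MCM helicase subunits and the 4 genes of nucleotide supply and the sliding clamp, 0 passed the test, and their median differences were −0.05 and −0.11. The 3 condensin subunits and the pair from the chromosomal passenger complex also gave 0 calls, with medians of −0.20 and −0.26, and 1 of the pair of G1/S cyclins fell. Cenpe, Kif20a, Kif4, Nusap1 and Top2a were not called when any one of Con, SD replicates 4 to 7 was left out. This leaves 2 kinesins, 2 spindle proteins and 1 proliferation marker. Over the 33 alternatives that tested them, Cenpe, Kif20a, Kif4 and Nusap1 were called under 11, 15, 19 and 10. Whether the difference itself varied between these roles was not tested.

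**Figure D2:**
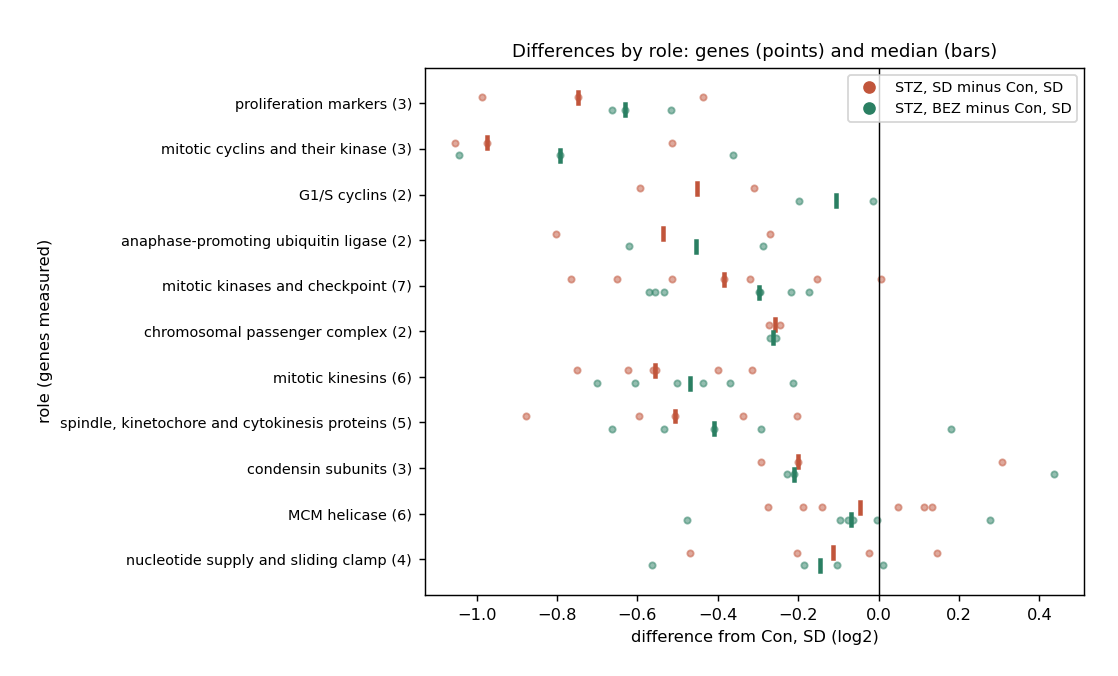
Differences from Con, SD on the log2 scale, one point for each member and a bar at the median of each role, for STZ, SD and for STZ, BEZ. The medians of the mitotic cyclins and of the kinesins lie at −0.97 and −0.56 in STZ, SD, and that of the MCM helicase at −0.05.

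Ube2c encodes the ubiquitin-conjugating enzyme that works with the anaphase-promoting complex to destroy mitotic cyclins, and it had the lowest p-value of the members. Its log2 values were 6.85, 6.79, 7.11, 6.97 and 6.41 in STZ, BEZ replicates 1 to 5. The lowest, median and highest values were 6.33, 6.66 and 6.95 in STZ, SD and 7.16, 7.55 and 7.78 in Con, SD. Both diabetic groups thus lay below every Con, SD array. Ube2c fell by 0.80 ± 0.14 (SE) on the log2 scale in STZ, SD vs Con, SD, which is 1.74-fold (adjusted p = 0.00645). Cdc20, which activates the same complex at anaphase, was at 6.40 ± 0.16 in STZ, SD (SD, n = 6) and 6.67 ± 0.31 in Con, SD (SD, n = 7), and its difference of −0.27 did not pass the test (adjusted p = 0.246).

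Among the proteins of the spindle, Prc1, which crosslinks the microtubules of the spindle midzone, changed most. It had 5.46, 5.07, 5.35, 5.30 and 5.25 in the STZ, BEZ arrays, 4.72, 5.09 and 5.32 as lowest, median and highest of STZ, SD, and 5.53, 5.85 and 6.53 in Con, SD. No diabetic array reached the lowest control array. Prc1 fell by 0.88 ± 0.17 in STZ, SD vs Con, SD (1.84-fold, adjusted p = 0.0104). Tpx2, which activates Aurora A and nucleates spindle microtubules, had 5.75, 5.66, 5.88, 5.84 and 5.64 in STZ, BEZ, against 5.36, 5.71 and 6.02 in STZ, SD and 5.87, 6.36 and 6.60 in Con, SD. Con, SD replicate 3 was low for Tpx2 and STZ, SD replicate 4 was high, so that these groups overlapped. Tpx2 fell by 0.60 ± 0.12 in STZ, SD vs Con, SD (1.51-fold, adjusted p = 0.0145). Nusap1, a microtubule-binding protein of the spindle, fell by 0.51 (adjusted p = 0.0899). Cenpf, a kinetochore protein, and Anln, a scaffold of the cytokinetic ring, had differences of −0.34 and −0.20 and did not pass the test.

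Ccna2 encodes cyclin A2, which is needed for S phase and for entry into mitosis. Its values were 6.92, 6.45, 7.09, 6.79 and 6.28 in STZ, BEZ, 5.82, 6.71 and 6.82 as lowest, median and highest in STZ, SD, and 6.91, 7.75 and 8.04 in Con, SD. The highest STZ, SD array lay just under the lowest Con, SD array, whereas a pair of STZ, BEZ arrays lay above it. Ccna2 fell by 0.97 ± 0.22 in STZ, SD vs Con, SD (1.97-fold, adjusted p = 0.0203). Ccnb2, the gene of cyclin B2, had 7.36, 7.15, 7.52, 7.55 and 6.73 in STZ, BEZ, against 6.72, 7.21 and 7.89 in STZ, SD and 7.67, 8.28 and 10.00 in Con, SD. The Con, SD maximum belonged to replicate 5, an array with germ cell RNA, and the next control array had 8.32. Ccnb2 fell by 1.05 ± 0.30 in STZ, SD vs Con, SD (2.08-fold, adjusted p = 0.0509), and without the pair of arrays with germ cell RNA its difference was −0.90 (adjusted p = 0.0359). It kept its call under 29 of 34 alternatives. Its adjusted p was highest, at 0.143, with the replicate number as a block. It was 0.101 without the pancreas arrays, 0.115 in a fit on only these groups and 0.121 without STZ, SD replicate 2. Cdk1, the kinase that both cyclins bind, had 7.18, 7.22, 7.45, 7.42 and 7.12 in STZ, BEZ, 6.47, 7.08 and 7.75 in STZ, SD and 7.14, 7.93 and 7.96 in Con, SD. The Cdk1 values of the groups overlapped widely, and the difference of −0.51 in STZ, SD vs Con, SD missed the threshold (95% interval −0.96 to −0.07, adjusted p = 0.166).

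Mki67, the gene of the Ki-67 antigen, which coats mitotic chromosomes and marks cells in cycle, had 7.40, 7.08, 7.50, 7.49 and 6.77 in STZ, BEZ. It had 5.97, 6.91 and 7.79 as lowest, median and highest in STZ, SD, against 7.20, 8.15 and 8.43 in Con, SD. The STZ, SD maximum came from replicate 6, the array with the most B cell RNA, and 4 of 6 STZ, SD arrays were below the lowest control. Mki67 fell by 0.99 ± 0.27 in STZ, SD vs Con, SD (1.98-fold, adjusted p = 0.0431). Top2a, the topoisomerase that untangles sister chromatids, had 6.60, 6.09, 6.54, 6.46 and 5.70 in STZ, BEZ, 5.50, 6.21 and 6.87 in STZ, SD and 6.28, 7.24 and 7.59 in Con, SD. For Top2a, too, 4 of 6 STZ, SD arrays lay under all controls. It fell by 0.75 ± 0.25 in STZ, SD vs Con, SD (1.68-fold, adjusted p = 0.0866), and it kept this call under 16 of the 34 alternatives run. With the mean of its 2 probe sets in place of the brighter one, its difference was −0.31 (adjusted p = 0.2). The remaining marker, Cdca3, which triggers entry into mitosis, had 8.22 in Con, SD replicate 5 and 6.79 to 7.27 in the other controls, and its difference of −0.44 was not called (adjusted p = 0.169).

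**Figure D3:**
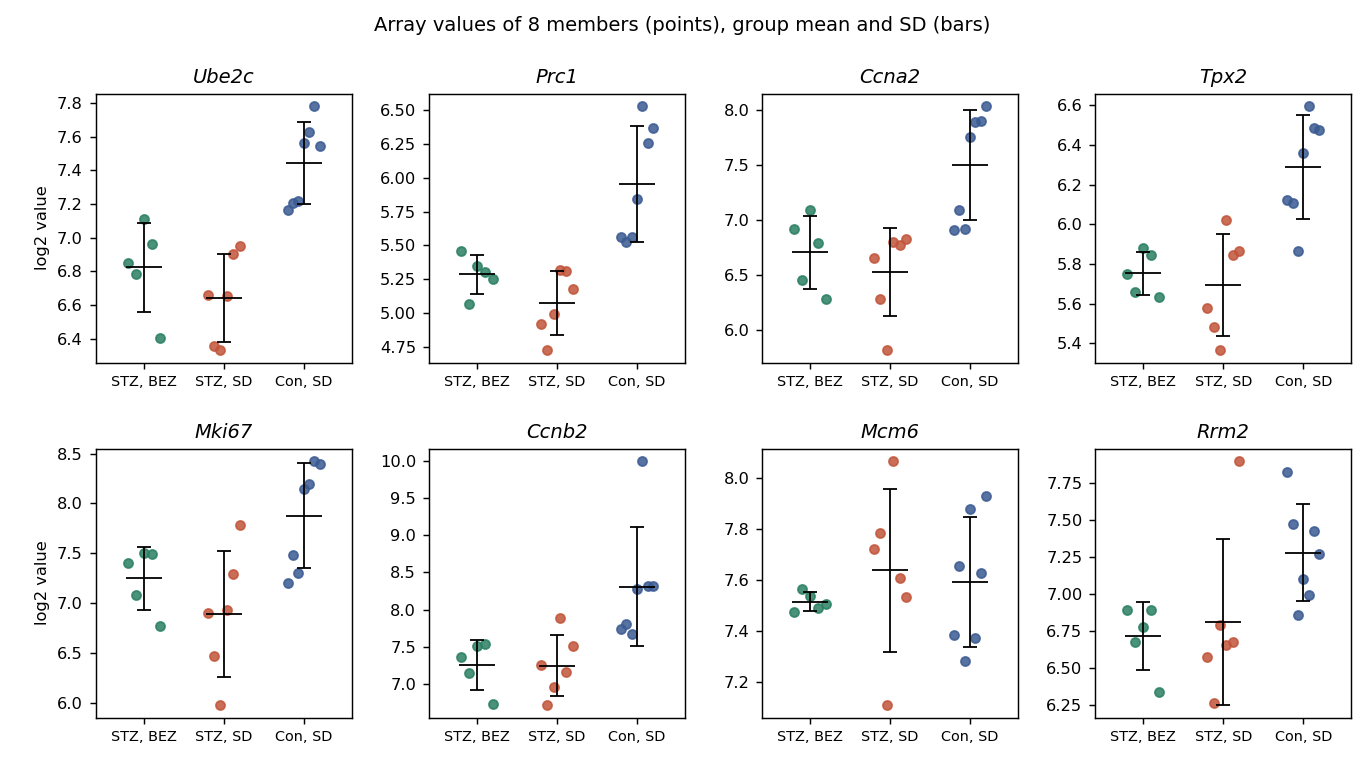
Log2 values of 8 members, with a point for each array, the group mean (bar) and the SD (whiskers), in STZ, BEZ, STZ, SD and Con, SD. The diabetic groups lie under the controls for Ube2c and Prc1, and the groups overlap for Mki67. For Ccnb2 the STZ, SD arrays overlap the controls, and every STZ, BEZ array lies below them. Mcm6 has overlapping groups with a mean of 7.51, 7.64 and 7.59.

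The mitotic kinesins are motors that slide and shorten spindle microtubules. Kif11, the motor that pushes the spindle poles apart, had 6.28, 6.17, 6.34, 6.31 and 5.41 in STZ, BEZ, 5.78, 6.04 and 6.34 in STZ, SD and 6.23, 6.94 and 7.37 in Con, SD. In the diabetic groups Kif11 overlapped the lower controls only, and STZ, BEZ replicate 5 was far below the rest of its group. It fell by 0.75 ± 0.20 in STZ, SD vs Con, SD (1.68-fold, adjusted p = 0.0383). Kif23, a motor of the central spindle that acts in cytokinesis, had 6.52, 6.61, 6.83, 6.66 and 6.29 in STZ, BEZ, 5.99, 6.52 and 6.66 in STZ, SD and 6.40, 7.19 and 7.44 in Con, SD. Its groups overlapped, with 2 of 6 STZ, SD arrays below all controls. Kif23 fell by 0.62 ± 0.17 in STZ, SD vs Con, SD (1.54-fold, adjusted p = 0.0431). Kif4, a chromosome-bound motor, had 4.53, 4.12, 4.46, 4.52 and 4.24 in STZ, BEZ, 4.04, 4.27 and 4.48 in STZ, SD and 4.33, 4.67 and 4.81 in Con, SD. These groups overlapped as well, and the fall in STZ, SD was 0.32 ± 0.10 (1.24-fold, adjusted p = 0.0699). Kif20a, which carries Aurora B to the midzone, and Cenpe, which moves chromosomes to the spindle equator, fell by 0.55 and 0.40 (adjusted p = 0.0877 and 0.0905). Kif2c, which shortens microtubules at the centromere, differed by −0.56 and was not called, and it had 7.70 in Con, SD replicate 5 beside 5.99 to 6.47 in the other controls.

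Of the mitotic kinases Aurkb alone was called. It encodes Aurora B, the kinase of the chromosomal passenger complex that corrects faulty attachments of chromosomes. Its values were 7.45, 6.76, 7.46, 7.31 and 6.85 in STZ, BEZ, 6.52, 6.95 and 7.44 in STZ, SD and 7.20, 7.90 and 8.11 in Con, SD. A pair of STZ, SD arrays reached into the range of the controls, whose lowest array was replicate 3. Aurkb fell by 0.77 ± 0.18 in STZ, SD vs Con, SD (1.70-fold, adjusted p = 0.022). Its partners Birc5 (survivin) and Cdca8 (borealin) had differences of −0.24 and −0.27 and did not pass the test (adjusted p = 0.213 and 0.125). The Cdca8 values were 5.73, 5.64, 5.84, 5.93 and 5.58 in STZ, BEZ, 5.46, 5.74 and 5.94 in STZ, SD and 5.77, 5.96 and 6.34 in Con, SD, with wide overlap. Aurka, the kinase of the spindle poles, Plk1, a kinase of mitotic entry, and Melk, a kinase of dividing cells, differed by −0.38, −0.65 and −0.32. Bub1, Ttk and Bub1b, which act in the spindle checkpoint, differed by −0.51, −0.15 and 0.00. None of these 6 passed the test, and Plk1 and Bub1 had 8.84 and 7.41 in Con, SD replicate 5 alone, beside at most 7.40 and 6.09 in the other controls.

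Ccne1 encodes cyclin E1, which with its kinase CDK2 starts S phase. Its values were 7.55, 7.46, 7.75, 7.63 and 7.26 in STZ, BEZ, 6.94, 7.12 and 7.39 in STZ, SD and 7.25, 7.80 and 8.09 in Con, SD. In STZ, SD, 5 of 6 arrays lay below the lowest control, while all STZ, BEZ arrays lay above it. Ccne1 fell by 0.59 ± 0.14 in STZ, SD vs Con, SD (1.51-fold, adjusted p = 0.023). Ccne2, its paralogue, had a difference of −0.31 (adjusted p = 0.233).

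None of the members that copy DNA passed the test in STZ, SD vs Con, SD. The 6 MCM subunits form the ring that unwinds DNA at the fork, and their differences in STZ, SD vs Con, SD ran over −0.27 (Mcm2), −0.19 (Mcm5), −0.14 (Mcm3), 0.05 (Mcm6), 0.11 (Mcm4) and 0.13 (Mcm7). The 95% interval for Mcm6 was −0.23 to 0.33. Rrm2, the regulated subunit of ribonucleotide reductase, had 6.89, 6.68, 6.77, 6.89 and 6.34 in STZ, BEZ, 6.26, 6.66 and 7.90 in STZ, SD and 6.86, 7.27 and 7.82 in Con, SD. The STZ, SD maximum was replicate 6, and the other 5 STZ, SD arrays lay below every control. The Rrm2 difference was −0.47 ± 0.21 (adjusted p = 0.219). Without the pair of arrays with lymphoid RNA, one of them STZ, SD replicate 6, it was −0.69 and was called lower (adjusted p = 0.0181). STZ, SD replicate 6 also carried the most pancreas RNA, and without the arrays with pancreas RNA the difference was −0.69 as well. Rrm2 was called under 5 of 34 alternatives in all (adjusted p from 0.0128 to 0.398 over the 34). Its partner subunit Rrm1, the thymidylate synthase Tyms and the sliding clamp Pcna differed by −0.02, 0.14 and −0.20. Of the condensin subunits, Smc2 had 6.25, 6.28, 6.31, 6.11 and 5.94 in STZ, BEZ, 5.82, 6.14 and 6.25 in STZ, SD and 6.00, 6.36 and 6.80 in Con, SD, with overlapping groups and a difference of −0.29 ± 0.12 (adjusted p = 0.156). Ncapg differed by −0.20, and Ncapg2, a subunit of the other condensin complex, by 0.31 (adjusted p = 0.446), the highest difference of the members.

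**Figure D4:**
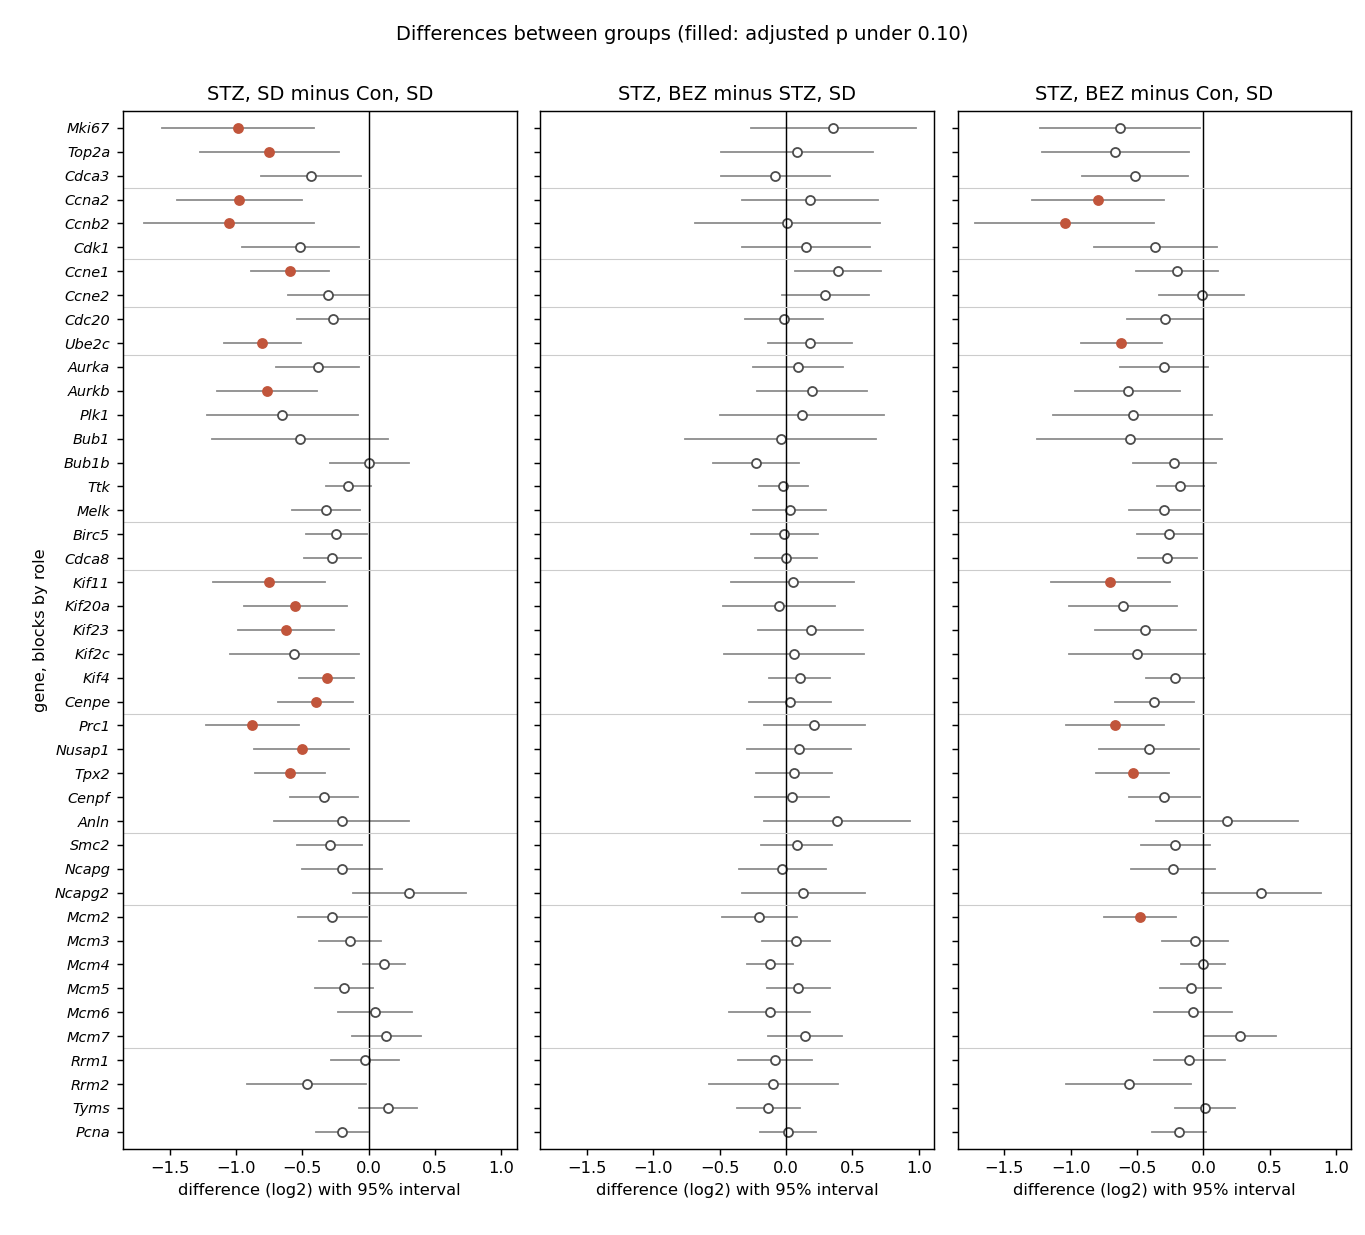
Difference of each member on the log2 scale with its 95% interval in the 3 comparisons, filled where the adjusted p was under 0.10. In STZ, SD vs Con, SD 15 points are filled, in STZ, BEZ vs STZ, SD 0, and in STZ, BEZ vs Con, SD 7, all on the side of lower values.

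The STZ, BEZ vs STZ, SD comparison asked whether the drug changed these levels in diabetic fat. None of the 43 members was called by limma, beside 0.707% of all genes called in either direction, and 1 of the 43 passed an unadjusted p under 0.05, beside 10.2% of all genes. This was Ccne1, at 7.53 ± 0.18 in STZ, BEZ (SD, n = 5) and 7.14 ± 0.17 in STZ, SD (SD, n = 6), a difference of 0.39 ± 0.15 with an adjusted p of 0.362. It was the single member called higher by SAM, the permutation test that the study names, at a false discovery rate of 10%. The median difference was 0.06, beside 0.01 over all genes, and 29 members had a positive difference. The intervals were wide: for Ube2c the difference was 0.18 (95% interval −0.13 to 0.50), for Ccna2 0.18 (−0.33 to 0.70), for Mki67 0.36 (−0.27 to 0.98) and for Ccnb2 0.01 (−0.69 to 0.71).

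In the STZ, BEZ vs Con, SD comparison, which shares its controls with the first one, 7 members were lower (16.3%) and 0 were higher, beside 1.38% of all genes called lower and 4.57% called higher. The median difference was −0.29, beside −0.01 over all genes, with 39 negative. At an unadjusted p under 0.05, 21 members were lower (48.8%), beside 6.96% of all genes. Every STZ, BEZ array lay below every Con, SD array for 5 members (Ube2c, Prc1, Ccnb2, Cdca3 and Mcm2), beside 1.64% of all genes.

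The members called in it were Ube2c (−0.62, adjusted p = 0.0286), Tpx2 (−0.53, 0.0358), Prc1 (−0.66, 0.0477), Mcm2 (−0.48, 0.0543), Ccna2 (−0.79, 0.0793), Kif11 (−0.70, 0.0829) and Ccnb2 (−1.04, 0.088). Mcm2 was the single replication gene among them. It had 7.61, 7.26, 7.54, 7.35 and 7.26 in STZ, BEZ, against 7.18, 7.62 and 7.94 in STZ, SD and 7.62, 7.89 and 8.08 in Con, SD. The highest STZ, BEZ array was just under the lowest control, while the STZ, SD arrays spread over both ranges, and Mcm2 fell 1.39-fold in STZ, BEZ vs Con, SD. The other MCM subunits differed by −0.10 to 0.28 and were not called. Without STZ, BEZ replicate 5 the count of called members was 0, and without replicate 2 of that group it was 1, beside 0.386% and 0.401% of all genes lower. The G1/S cyclins Ccne1 and Ccne2 differed by −0.20 and −0.01 in STZ, BEZ vs Con, SD, and were not called (adjusted p = 0.507 and 0.976).

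The pair of arrays with germ cell RNA stood out for many members. Con, SD replicate 5 was the highest control for 20 of the 43 members, and it exceeded the median of the other controls by over 1 for Ccnb2, Bub1, Plk1, Kif2c, Cdca3 and Kif20a. STZ, SD replicate 4 was the highest of its group for 24 members. Germ cell genes that are silent in other tissues were raised in this pair of arrays: Ddx4 was at 7.38 in STZ, SD replicate 4 and 8.81 in Con, SD replicate 5, beside 4.55 to 5.27 elsewhere, and Sycp1 at 6.42 and 6.55, beside 3.93 to 4.24. Without both arrays the median difference of the members in STZ, SD vs Con, SD was −0.32, and 11 members were lower, beside 2.21% of all genes. Of these 11, 10 were among the 15. Cenpe, Kif4, Mki67, Nusap1 and Top2a were then not called, with differences of −0.34, −0.32, −0.94, −0.46 and −0.70, close to those over all arrays, and Bub1 was called.

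Lymphoid RNA was high in STZ, SD replicate 6 and STZ, BEZ replicate 4, with the B cell gene Ms4a1 at 9.63 and 7.75, beside 5.27 to 6.78 elsewhere. The T and NK cell genes had a mean of 7.73 in STZ, SD replicate 6, beside 6.17 to 6.77 elsewhere. Without those arrays 17 members were lower in STZ, SD vs Con, SD, beside 4.43% of all genes. Without both the germ cell and the lymphoid arrays 18 were, beside 1.96% of all genes, so that the count was as large without them. Leaving out the 3 arrays with the most RNA of epididymis and testis gave 12 calls, beside 6.09% of all genes lower. Of the 5 arrays with pancreas RNA, only STZ, SD replicate 6 belongs to STZ, SD or Con, SD. The lymphoid set takes out the same array of these groups, and the median difference was −0.34 without either set. The fit without the pancreas arrays keeps 1 STZ, BEZ array in the shared spread, so its calls are not set beside the other counts. The means of macrophage genes were 9.03 to 9.44 in STZ, BEZ, 8.52 to 9.22 in STZ, SD and 8.61 to 9.49 in Con, SD, and those of 11 endothelial genes averaged 9.83 ± 0.06 in STZ, BEZ, 9.60 ± 0.55 in STZ, SD and 9.54 ± 0.41 in Con, SD (SD). The means of 12 genes of progenitors and fibroblasts were 9.74 ± 0.02 in STZ, BEZ, 9.70 ± 0.36 in STZ, SD and 9.80 ± 0.18 in Con, SD. In STZ, SD vs Con, SD 6 of these 12 genes had a negative and 6 a positive difference. Of the 12, 3 were called lower, beside 4.52% of all genes, and 0 higher. The 3 were the matrix genes Fn1 (−0.88, adjusted p = 0.0496), Col3a1 (−0.62, 0.0858) and Col1a1 (−0.61, 0.0337). The means of 9 mesothelium genes were 9.07 ± 0.29 in STZ, BEZ, 9.22 ± 0.42 in STZ, SD and 8.81 ± 0.42 in Con, SD, and all 9 had a positive difference in STZ, SD vs Con, SD, with 0 called. The part of the fat's cell make-up in the members' differences was not tested.

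**Figure D5:**
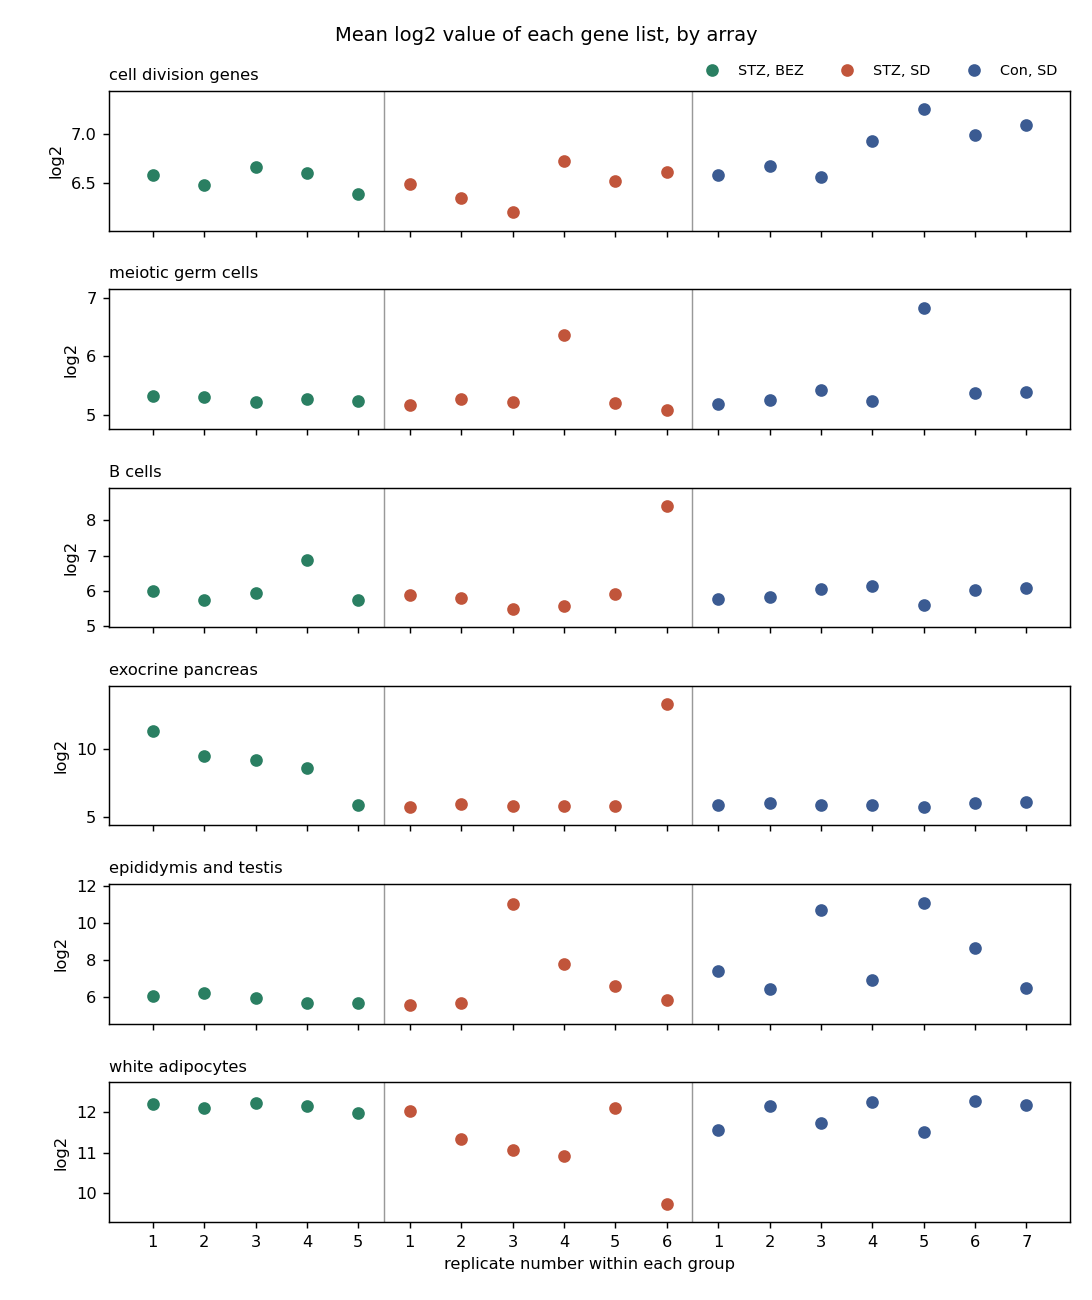
Mean log2 value of each gene list on each array, in STZ, BEZ, STZ, SD and Con, SD. The cell division genes vary between 6.20 and 7.25, the germ cell genes are raised on 1 STZ, SD and 1 Con, SD array, the B cell genes on 1 STZ, BEZ and 1 STZ, SD array, and the pancreas genes on 4 STZ, BEZ arrays and 1 STZ, SD array.

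The members varied together from array to array. With each gene centred on its group means, the median Pearson correlation between pairs of members was 0.51 over the 18 arrays (903 pairs, 90.5% above 0), and 0.53 over the 14 arrays without germ cell or lymphoid RNA. These pairs share arrays and tissue make-up, so the values describe the data only. The members closest to the mean of the others were Ccna2 (r = 0.93), Tpx2 (0.93) and Top2a (0.93), and the most distant were Rrm2 (0.03), Mcm4 (0.11), Ncapg2 (0.15) and Mcm2 (0.17). Of the genes outside the lists, the 12 most like the members' mean over the 18 arrays had correlations of 0.81 to 0.88. They were Asf1b, a histone chaperone, Ezh2, a histone methyltransferase, Fanci, a DNA repair protein, Esco2, which acetylates cohesin, Plk4, the kinase of centriole duplication, and Nrm, Atad2, Mastl, 4930463O16Rik, Fignl1, Psmc3ip and Zfp541. Among these 12, Mastl, a kinase that keeps cells in mitosis, was called lower in STZ, SD vs Con, SD (−0.38, adjusted p = 0.0774). Ezh2 was called higher in STZ, BEZ vs Con, SD (0.35, adjusted p = 0.094).

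Related genes that are not members were counted from lists written from general knowledge. The shares of all genes to set beside these counts were 4.52% lower and 5.82% higher in STZ, SD vs Con, SD. In STZ, BEZ vs STZ, SD 0.707% of all genes were called in either direction. Of 52 other mitosis genes, 16 were lower and 1 higher in STZ, SD vs Con, SD, with a median difference of −0.28, and 0 were called in STZ, BEZ vs STZ, SD. Spc25, a subunit of the kinetochore complex that grips microtubules, was at 5.22 ± 0.11 in STZ, BEZ, 5.18 ± 0.17 in STZ, SD and 5.71 ± 0.20 in Con, SD, and it fell by 0.54 in STZ, SD vs Con, SD (adjusted p = 0.00784). Pbk, a mitotic kinase, and Iqgap3, a scaffold protein, fell by 0.41 and 0.47 (adjusted p = 0.0207 and 0.022). The gene that rose was Pttg1, the gene of securin, which holds back the separation of chromatids (0.36, adjusted p = 0.0282). Of 41 other replication genes 1 was lower and 0 higher: Gins2, a partner of the MCM ring at the fork, fell by 0.52 (adjusted p = 0.034).

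Among 29 genes of cell cycle entry and transcription, 5 fell and 2 rose in STZ, SD vs Con, SD, beside 4.52% of all genes lower and 5.82% higher. E2f1, which switches on genes of S phase, fell by 0.53 (adjusted p = 0.0452), E2f3 by 0.53 (adjusted p = 0.0616) and Foxm1, an activator of mitotic genes, by 0.60 (adjusted p = 0.0749). Myc, a growth regulator, was at 8.74 ± 0.45 in STZ, BEZ, 8.89 ± 0.61 in STZ, SD and 7.82 ± 0.35 in Con, SD, and it rose by 1.07 in STZ, SD vs Con, SD (adjusted p = 0.0207). Tfdp2, a binding partner of the E2F proteins, rose by 0.60 (adjusted p = 0.0331). Of 17 brakes of the cycle 4 rose and 1 fell, beside the same shares of all genes. Cdkn1b, the CDK inhibitor p27, and Rbl2, a pocket protein that holds E2F targets silent in resting cells, rose by 0.43 and 0.36 (adjusted p = 0.0413 and 0.032), and Trp53inp1 and Gadd45g, a pair of stress genes that slow growth, by 1.02 and 0.83 (adjusted p = 0.0401 and 0.0433). The brake that fell was Ccng1, a target of p53 (−0.39, adjusted p = 0.0383). In STZ, BEZ vs STZ, SD 0 genes of these lists were called, beside 0.707% of all genes in either direction.

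In STZ, BEZ vs Con, SD 5 of the 52 other mitosis genes were lower and 0 higher, and of the 41 replication genes 1 was lower and 1 higher. Of the 29 genes of entry 2 were lower and 1 higher, and of the 17 brakes 0 were lower and 1 higher. These counts stand beside 1.38% of all genes called lower and 4.57% called higher. Ccnd1, the gene of cyclin D1, fell by 1.04 (adjusted p = 0.033), with 9.04 ± 0.47 in STZ, BEZ and 10.08 ± 0.22 in Con, SD. Spc25 and Pbk fell by 0.50 and 0.35 (adjusted p = 0.0145 and 0.0645), while Myc and Cdkn1b rose by 0.93 and 0.43 (adjusted p = 0.0646 and 0.0699). Zwilch, a kinetochore protein of the checkpoint, and Ckap2, a microtubule protein, fell by 0.61 and 0.54 in that comparison (adjusted p = 0.0383 and 0.0568), and the phosphatase gene Cdc25c fell by 0.31 (adjusted p = 0.0685). Of the replication genes, Chaf1b, a subunit of the chromatin assembly factor, fell by 0.54 (adjusted p = 0.0426), and Orc3, a subunit of the origin recognition complex, rose by 0.48 (adjusted p = 0.0658).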

How the data were processed

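The authors hybridised total RNA of visceral fat, and array signals were condensed to probe set values with RMA (robust multi-array averaging) in Affymetrix Expression Console 1.2, per the labels. The deposited values are log2 signals of 35556 probe sets on 18 arrays, already normalized. RMA sets all arrays to a common distribution, which can hide a shift shared by most genes. Of the probe sets, 21789 carry a single gene symbol of the platform's annotation, 1621 carry several and 12146 have no name here, and 1 probe set a gene was kept, which gave 19938 genes. No depth or background level is given with these signals, so the number of arrays sets the precision.

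Groups were taken from the sample labels and compared in limma 3.58.1 (R 4.3.3) in a single fit of the 18 arrays, with 15 residual and 2.44 prior degrees of freedom. Benjamini-Hochberg adjustment ran over the 19938 genes, and calls were made at an adjusted p under 0.10. Fold changes are differences of group means on the log2 scale, with their standard error (SE) and 95% interval. The fit was tested on simulated data. The members, lists and tests were chosen with earlier results of these data known. Full values are given for Mki67, Top2a, Cdk1, the 12 called members of lowest adjusted p and the member of lowest p in each role. These are the values on each STZ, BEZ array, and the lowest, median and highest in STZ, SD and in Con, SD. Of each further list up to 4 called genes by p are named, and beside them 12 genes outside the lists that correlate best with the members' mean. Foxm1 and Gadd45g were named beside these after their values were seen, as were the markers Ddx4, Sycp1 and Ms4a1.

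Alternatives were an adjusted p under 0.05, SAM written for this work (100 permutations of the groups, a symmetric threshold and a false discovery rate of 10%), array weights, robust fitting with a trend of the variance, fits on only 2 groups, quantile normalization, array medians set to 0, a filter on dim genes, the mean of a gene's probe sets, all probe sets, a block by replicate number, and each array left out in turn. Leaving out arrays with RNA of other tissues was added after seeing the data. Promoters are RefSeq windows on GRCm38.p6, and their coordinates count from 1.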

Additional observations from a re-analysis of the deposited data

Results flagged for a closer look

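An array was set apart where its gap to the nearest array of its group was a large share of the group's range (Dixon's 95% critical value). Of 129 groups of values tested, 11 were set apart, and chance gives about 1 in 20. Of these, 5 were high values of Con, SD replicate 5, an array with germ cell RNA: Ccnb2 at 10.00 (other controls 7.67 to 8.32), Plk1 at 8.84 (6.60 to 7.40), Cdca3 at 8.22 (6.79 to 7.27), Kif2c at 7.70 (5.99 to 6.47) and Bub1 at 7.41 (5.23 to 6.09). Bub1 was also high, at 6.56, in STZ, SD replicate 4, the other array with germ cell RNA, beside 4.83 to 5.37 in the rest of its group. In STZ, SD replicate 6, the array with the most lymphoid and pancreas RNA, Rrm2 was at 7.90 (6.26 to 6.79 in the rest of the group) and Birc5 at 6.07 (5.58 to 5.68). STZ, SD replicate 3 was low for Mcm3 at 5.81 (6.34 to 6.53) and for Melk at 5.64 (5.98 to 6.17), and it was the lowest of its group for 25 of 43 members. Kif11 was at 5.41 in STZ, BEZ replicate 5, beside 6.17 to 6.34 in the rest of the group. The part of other tissues' RNA in these values was not tested.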

How the results depend on the processing

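Of the members, 15 were lower in STZ, SD vs Con, SD. This count was 9 at an adjusted p under 0.05, 7 in a fit on only these groups, 9 of the 26 members left by the filter on dim genes, and 7 to 21 with each array left out in turn (7 without STZ, SD replicate 2, 21 without STZ, SD replicate 6). It was 6 with the replicate number as a block, and 11 to 18 under the other alternatives. The share of all genes called lower was 4.52% in the main fit, 2.19% at an adjusted p under 0.05, 1.99% in the fit on only these groups and 7.82% after the filter. That share was 2.19% without STZ, SD replicate 2, 4.99% without STZ, SD replicate 6, 1.18% with the block and 1.96% to 6.69% under the other alternatives. Ube2c, Ccna2 and Aurkb kept their call under all 34 alternatives, and Prc1 and Tpx2 under the 33 that tested them. Of the called members, the filter on dim genes removed Prc1, Tpx2, Cenpe, Kif20a, Kif4 and Nusap1 before testing. In STZ, BEZ vs STZ, SD 0 members were called, and 1 by SAM; with each array left out in turn it was 0 each time. In STZ, BEZ vs Con, SD 7 were lower. This count was 3 at an adjusted p under 0.05, 24 by SAM (22 lower, 2 higher), 20 with array weights (19 lower, 1 higher), 1 without the 5 arrays with pancreas RNA, which leaves 1 STZ, BEZ array whose spread is assumed to be that of the others, and 0 to 10 with each array left out in turn. It was 4 without Con, SD replicate 4 or 6 or STZ, BEZ replicate 1, 3 without Con, SD replicate 7 or STZ, BEZ replicate 4, 1 without STZ, BEZ replicate 2 and 0 without STZ, BEZ replicate 5. Over all genes 1.38% were lower in this comparison, against 10.1% by SAM and 7.24% with array weights. The share was 0.627% at an adjusted p under 0.05, and 0.401% and 0.386% without STZ, BEZ replicates 2 and 5. Why the counts moved was not tested beyond the smaller sets of arrays and genes themselves. The median difference kept its sign in both comparisons with Con, SD under every alternative for which it was computed (−0.41 to −0.26 in STZ, SD and −0.47 to −0.22 in STZ, BEZ). In STZ, BEZ vs STZ, SD it was −0.10 to 0.13. No median was computed for the stricter threshold, SAM, the robust fit with a variance trend, the filter on dim genes or all probe sets. Replicate numbers are shared by the groups, but same-numbered arrays did not deviate together (median correlation −0.01 over 16 pairs, 2 above 0.1, and −0.01 over 91 other pairs). With the replicate number as a block, 6 members were lower in STZ, SD vs Con, SD (1.18% of all genes), 2 in STZ, BEZ vs Con, SD (1.15%) and 0 in STZ, BEZ vs STZ, SD. No background level comes with the signals, so the dimmest members may lie near it.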
